A study of Mus musculus with 6 samples.

Results

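The 7 genes described here encode Xin repeat proteins, muscle ankyrin repeat proteins and a pair of actin-associated scaffold proteins of the sarcomere. They were *Xirp1*, *Xirp2*, *Nrap*, *Csrp3*, *Ankrd1*, *Ankrd2* and *Ankrd23*, chosen by name, with earlier results of these data known. They took 8 rows of the deposited count table, because *Ankrd23* is listed under 2 identifiers, out of 46078 genes in all. All 7 genes passed the filter on low counts, and the second *Ankrd23* row, with 0 counts in every library, was not tested.

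RNA was sequenced from C2C12 cells, an immortalized mouse myoblast line that fuses into myotubes when serum is withdrawn, after 2 days of differentiation. The KO group held 3 libraries from cells in which *Hnrnpa2b1*, the gene of an RNA-binding protein, had been targeted with CRISPR-Cas9, and the WT group held 3 libraries from cells without that knockout. The study's methods describe separately isolated clones of each genotype, but which clone gave which library is not stated, so p-values measure the spread between these libraries. The cells were cultured myotubes and myoblasts with no nerve, tendon or load.

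Xin repeat proteins bind and cross-link actin filaments and gather where myofibrils end at the cell membrane, at the myotendinous junction of skeletal muscle and the intercalated disc of the heart. NRAP and the LIM domain protein CSRP3 (muscle LIM protein) are scaffolds of early myofibrils and Z-discs. The muscle ankyrin repeat proteins bind the elastic part of titin, also enter the nucleus, and are known as genes that respond to stretch and injury.

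The libraries held between 33605258 and 40558740 counts on genes. *Hnrnpa2b1* RNA was at 159, 195 and 249 CPM (counts divided by library size, scaled with edgeR's TMM factors) in KO1, KO2 and KO3 and at 225, 229 and 252 in WT1, WT2 and WT3. The genotypes overlapped for this gene (log2 fold change −0.23, SE 0.18, adjusted p = 0.381, edgeR), so its RNA level gave no check of the labels. KO1 stood apart from the other KO libraries: 16 myotube markers summed to 26080 CPM there, to 9432 and 8639 in KO2 and KO3, and to 24676, 19038 and 25656 in WT1, WT2 and WT3. In bulk RNA, fewer cells of a type and less RNA per cell cannot be told apart.

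Of the 7 members, *Xirp2* alone passed the test on counts, and it was 19.1-fold lower in KO cells. The other 6 did not pass. Over all genes, 22.7% of 14828 tested genes passed in either direction and 10.6% passed as lower in KO, so 1 of 7 members is close to that background. As higher in KO, 0 members and 12.1% of all genes passed with edgeR. At an unadjusted p under 0.05, 3 members (*Xirp2*, *Ankrd2* and *Ankrd23*) and 39% of all genes differed. Both genotypes were apart for 2 members, *Xirp2* below and *Ankrd23* above WT, where 44.3% of all tested genes did not overlap. The median log2 fold change of the members was 0.20, against 0.03 over all genes, but it was −0.13 without KO1 and 0.50 without KO2, with 0.03 over all genes in both fits, so it gives no common direction. In the authors' TPM values, which correct for transcript length, *Xirp2* (lower) and *Ankrd23* (higher) passed the test with limma, against a background of 20.5% of 11691 genes, 11.9% as lower and 8.59% as higher in KO. The same 2 members, *Ankrd23* by its main row, did not overlap between genotypes in TPM, where 40.6% of all genes tested did not.

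**Figure D1:**
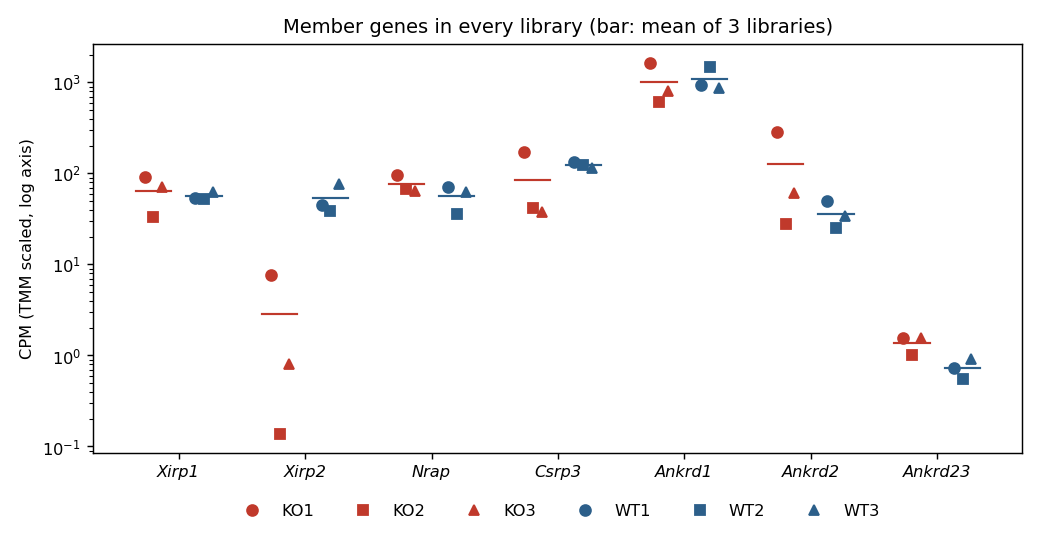
CPM of the 7 members on a log axis, with a point for each of the 3 KO (red) and 3 WT (blue) libraries and a bar at the group mean. *Xirp2* lies at 0.137 to 7.61 in KO and 38.5 to 77.3 in WT, and KO1 is the highest KO library for every member.

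*Xirp2* lies on the plus strand at chr2:67446002-67526614 (GRCm38). Its CPM was 7.61, 0.137 and 0.806 in KO1, KO2 and KO3, from 272, 6 and 33 counts, and 45.3, 38.5 and 77.3 in WT1, WT2 and WT3, from 1565, 1263 and 2867 counts. Every KO library lay below every WT library, and KO1 was 16.1 times the mean of KO2 and KO3. The log2 fold change was −4.26 (SE 1.09, 95% interval −6.77 to −1.74, adjusted p = 0.029, edgeR), lower in 3 of 3 KO libraries. Of 14828 tested genes, 85 (0.573%) had a lower log2 fold change, and all 85 of these passed the test. The direction held with each library left out, from −6.85 without KO1 to −3.69 without KO2. The call itself was lost without KO3 (−3.81, adjusted p = 0.0793), without WT1 (−4.37, adjusted p = 0.0842), without WT2 (−4.46, adjusted p = 0.0522) and without WT3 (−3.93, adjusted p = 0.0897), each with edgeR on 5 libraries. In these fits 0 of 7 members passed at an adjusted p under 0.05, against 13.9%, 6.01%, 13.6% and 8.43% of all tested genes in the same order. At an unadjusted p under 0.05 there were 2, 1, 1 and 2 members. The share of all genes at that unadjusted threshold was 39% with all 6 libraries and was not computed for these fits.

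In TPM, *Xirp2* was at 0.421, 0.0072 and 0.0551 in the KO libraries and at 2.64, 2.32 and 4.18 in the WT libraries. The log2 difference on the log2(TPM + 1) scale was −1.79 (SE 0.21, adjusted p = 0.00148, limma), and with a pseudocount of 0.1 it was −3.89. The gene passed the filter on TPM only through its WT libraries, so this call is not separate support. The myotube markers were lower in KO2 and KO3 as well. Their median distance from the WT mean was −0.02 in KO1, where *Xirp2* was already −2.74, then −1.36 and −1.58 in KO2 and KO3, where *Xirp2* was −8.07 and −5.90 (log2 CPM). The part of the markers in the *Xirp2* difference was not tested.

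The 30 bases around the one match to the MEF2 motif in the *Xirp2* promoter window are shown because the regulator genes below include the MEF2 family. Windows ran from 250 bases before to 50 bases after each RefSeq start (GRCm38.p6), 6 of the 7 members had at least 1 of the 8 windows, and both strands were searched. The sequence is printed 5′ to 3′ on the gene's strand, chr2:67445918-67445947, with the match in capitals, 74 bases before the start.
Xirp2 MEF2 motif: agctcagttcCTAAAAATAGgtgctaggtt
The MEF2 motif was found in 3.19% of 32851 windows of the same length, and among the members in *Xirp2* alone. The E-box (CANNTG), the motif of the MyoD family, was held by 72.3% of windows and by at least 1 window of each of the 6 members, with 2 matches for *Xirp2* that overlap each other. The CArG box, the motif of SRF, was held by 1.63% of windows and had no match in a member's window. These matches describe letters in a window and are no evidence of binding.

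*Xirp1*, the other Xin repeat gene (chr9:120013755-120023598, minus strand), did not pass either test. Its CPM was 91.1, 33.3 and 70.2 in KO and 53.9, 52.4 and 63.1 in WT, so the WT values lay inside the KO range. Its log2 fold change was 0.20 (SE 0.32, 95% interval −0.54 to 0.94, adjusted p = 0.676, edgeR), and it turned to −0.13 without KO1. Per transcript length, *Xirp2* took 4.28%, 0.195% and 0.603% of the summed TPM of both Xin repeat genes in KO1, KO2 and KO3 and 29.9%, 27.4% and 38.5% in WT1, WT2 and WT3. The mean share was 1.69% ± 2.25 (SD, n = 3) in KO and 32% ± 5.85 in WT, with no overlap (exact two-sided permutation p = 0.1, the smallest that 3 against 3 libraries allow). This share was chosen after the values had been seen. The summed TPM of both genes, 9.86, 3.68 and 9.14 in KO and 8.83, 8.47 and 10.9 in WT, overlapped between genotypes.

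*Nrap*, whose product scaffolds actin filaments during myofibril assembly (chr19:56320035-56390037, minus strand), was at 95.2, 68.3 and 63.9 CPM in KO and 70.4, 35.9 and 62.6 in WT. All KO libraries lay above WT2 and WT3, and WT1 lay above KO2 and KO3. With edgeR it differed by 0.43 on the log2 scale (SE 0.26, 95% interval −0.18 to 1.04, adjusted p = 0.265). It stayed positive with each library left out, at 0.18 to 0.61.

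*Csrp3*, the muscle LIM protein gene (chr7:48830398-48848051, minus strand), was at 172, 41.8 and 37.3 CPM in KO and 134, 124 and 115 in WT. KO1 lay above every WT library, and KO2 and KO3 lay below every WT library. Over 6 libraries the log2 fold change was −0.57 (SE 0.54, adjusted p = 0.473, edgeR). Without KO1 it was −1.66 (SE 0.15, adjusted p = 0.00026), a fit in which 30.6% of 15409 tested genes passed. The KO libraries stood in the same order as for the myotube markers, whose median was −0.02, −1.36 and −1.58 in KO1, KO2 and KO3 against 0.48, −1.57 and −1.73 for *Csrp3* (log2 CPM relative to the WT mean). The order of the WT libraries differed, at 0.16, −0.30 and 0.17 for the markers and 0.11, 0.00 and −0.11 for *Csrp3* in WT1, WT2 and WT3. Whether *Csrp3* differs apart from these markers was not tested.

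**Figure D2:**
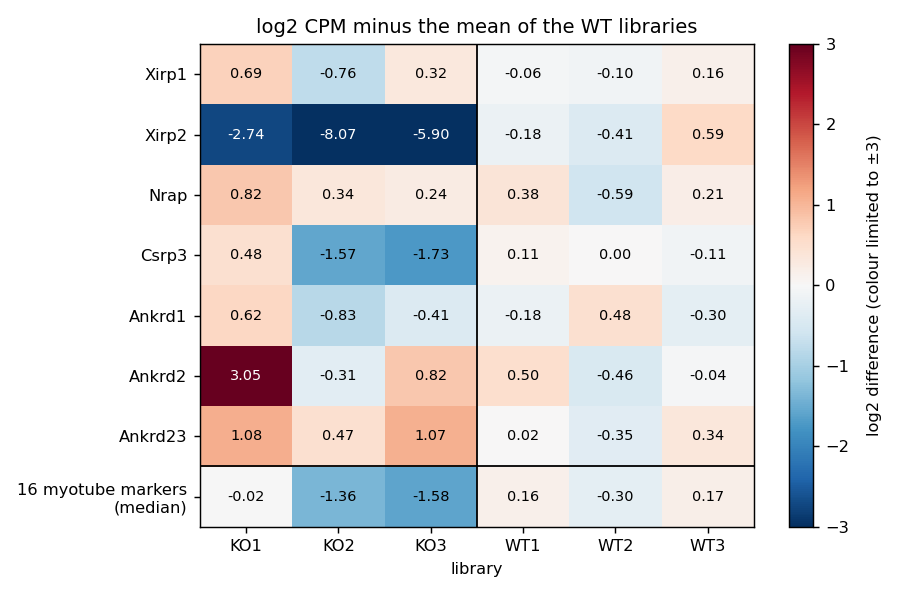
Distance of each member from the mean of the WT libraries in each library, in log2 CPM, with the median of 16 myotube markers in the bottom row; red is higher, blue is lower and colour is limited to ±3. *Csrp3* is at −1.57 and −1.73 in KO2 and KO3, where the markers are at −1.36 and −1.58, *Xirp2* is below WT in all KO libraries, and *Ankrd2* reaches 3.05 in KO1.

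*Ankrd1*, which encodes the cardiac ankyrin repeat protein (chr19:36111965-36119844, minus strand), had the highest TPM of the members in all 6 libraries. Its CPM was 1654, 603 and 809 in KO and 946, 1492 and 874 in WT. The highest library was KO1 and the next was WT2, and the genotypes overlapped throughout. Its log2 fold change was −0.11 (SE 0.39, 95% interval −1.02 to 0.79, adjusted p = 0.855, edgeR). Its sign turned without KO2 (0.16), without KO3 (0.03) and without WT2 (0.15), so no direction can be given.

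The *Ankrd1* promoter window held 2 matches to the MCAT element (CATTCC), the motif of the TEAD factors that act with YAP. They are shown because *Ankrd1* is a widely used readout of YAP and stretch. Both matches are on the opposite strand, so that they read GGAATG in capitals here. The sequences are on the gene's strand, 210 bases before the start at chr19:36120037-36120066 and 123 bases before it at chr19:36119950-36119979 (GRCm38.p6).
Ankrd1 MCAT, far: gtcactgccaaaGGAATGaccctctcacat
Ankrd1 MCAT, near: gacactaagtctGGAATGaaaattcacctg
Of all windows, 14.7% held the MCAT element, and among the members *Ankrd23* held it too.

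*Ankrd2* (chr19:42036038-42045110, plus strand), whose product is found mainly in slow skeletal muscle, had the highest positive log2 fold change of the members but did not pass the test. Its CPM was 289, 28.1 and 61.5 in KO and 49.4, 25.3 and 33.7 in WT. KO1 was 6.44 times the mean of KO2 and KO3, while KO2 lay within the WT range and KO3 above it. The log2 fold change was 1.80 (SE 0.76, 95% interval 0.05 to 3.56, adjusted p = 0.12, edgeR), and 0.30 (adjusted p = 0.543) without KO1. Without KO2 the call was made, at 2.27 (adjusted p = 0.0389), in a fit in which 17.7% of all genes passed. In KO1 the fibroblast genes *Col1a1* and *Dcn* were also high, at 449 and 90.6 CPM against 46.4 to 107 and 7.01 to 17.7 in WT. *Col1a1* was at 42.4 and 440 and *Dcn* at 7.58 and 7.62 in KO2 and KO3. These 2 genes, named after their values were seen, belong to a list of 6 smooth muscle and fibroblast markers whose sum in KO1 lay within the WT range. The list summed to 4341, 4080 and 4170 CPM in KO and to 3756, 4569 and 4171 in WT. Most of that sum was *Acta2*, at 3793 in KO1 and 3694 to 4501 in WT. *Myh11* (0.616 CPM), *Cnn1* (1.29) and *Pdgfra* (6.32) in KO1 also lay above every WT library. Their WT ranges were 0.318 to 0.539, 0.539 to 1.04 and 3.47 to 4.93. *Pdgfra* was higher still in KO2 (8.59) and KO3 (12). The part of these markers in the *Ankrd2* values was not tested.

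*Ankrd23* (chr1:36530188-36536883, minus strand), which encodes the diabetes-related ankyrin repeat protein, was above WT in every KO library by counts and, for its main row, by TPM. Its counts were low, at 56, 44 and 64 in KO and 25, 18 and 34 in WT, which is 1.57, 1.01 and 1.56 CPM against 0.723, 0.549 and 0.916. On counts the log2 fold change was 0.91 (SE 0.36, 95% interval 0.08 to 1.74, adjusted p = 0.101, edgeR). In TPM it was at 37.6, 15.5 and 27.0 in KO and 14.6, 9.15 and 12.4 in WT, a log2 difference of 1.02 (SE 0.30, adjusted p = 0.0416, limma), higher in 3 of 3 KO libraries.

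The TPM call of *Ankrd23* was close to the threshold. It was kept without KO2 and lost without each of the other libraries, with adjusted p between 0.0567 without KO1 and 0.113 without WT2 (limma; 0.102 without KO3, 0.0952 without WT1, 0.104 without WT3). The counts and TPM values of this gene are not on the same footing. A TPM unit corresponded to 2.17 counts for *Ankrd23* (median of the libraries), against 50.5 for *Csrp3* and 622 for *Xirp2*, the lowest and the highest of the other members. A second row named *Ankrd23* overlaps it on the same strand (chr1:36530193-36539429), with TPM of 1.68 and 2.83 in WT1 and WT2 and 0 in the others. With both rows summed, WT1 was at 16.3 TPM, above KO2 at 15.5, so that the genotypes overlapped, and the difference was 0.86 (adjusted p = 0.0639, limma). The level of this gene is therefore uncertain.

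**Figure D3:**
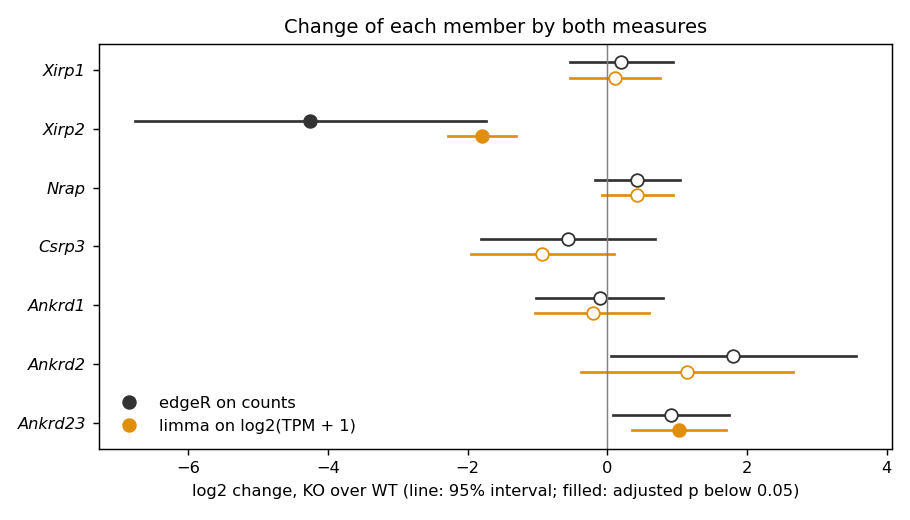
Change of each member in KO over WT with its 95% interval, from edgeR on counts (black) and from limma on log2(TPM + 1) (orange); filled points passed an adjusted p of 0.05. *Xirp2* is filled by both measures at −4.26 and −1.79, and *Ankrd23* by TPM alone at 1.02.

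Compared per length, the order of the members was alike in all libraries at its ends. *Ankrd1* was the highest, at 219 to 593 TPM, and *Xirp2* the lowest. *Csrp3* was above *Ankrd2* in all 3 WT libraries, at 79.8 to 103 TPM against 16.2 to 31.3, but in KO the ranges overlapped and *Ankrd2* was above *Csrp3* in KO1 and KO3. *Nrap* was above *Xirp1* in all 3 KO libraries and in 2 of 3 WT libraries, with ranges that overlapped in both genotypes. Within the ankyrin repeat genes, *Ankrd1* took 74.1%, 87.3% and 83.4% of the summed TPM in KO1, KO2 and KO3 and 88.9%, 95.9% and 90.8% in WT1, WT2 and WT3. The mean share was 81.6% ± 6.76 (SD, n = 3) in KO and 91.8% ± 3.64 in WT, a difference of −10.2 percentage points with no overlap between genotypes (exact two-sided permutation p = 0.1, the smallest possible here). Without KO1 the difference was −6.49 percentage points. The share of *Ankrd23* was 4.86%, 6.19% and 6.5% in KO and 3.55%, 1.48% and 3.6% in WT. The share of *Ankrd2*, at 21%, 6.48% and 10.1% in KO and 7.59%, 2.62% and 5.64% in WT, overlapped.

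**Figure D4:**
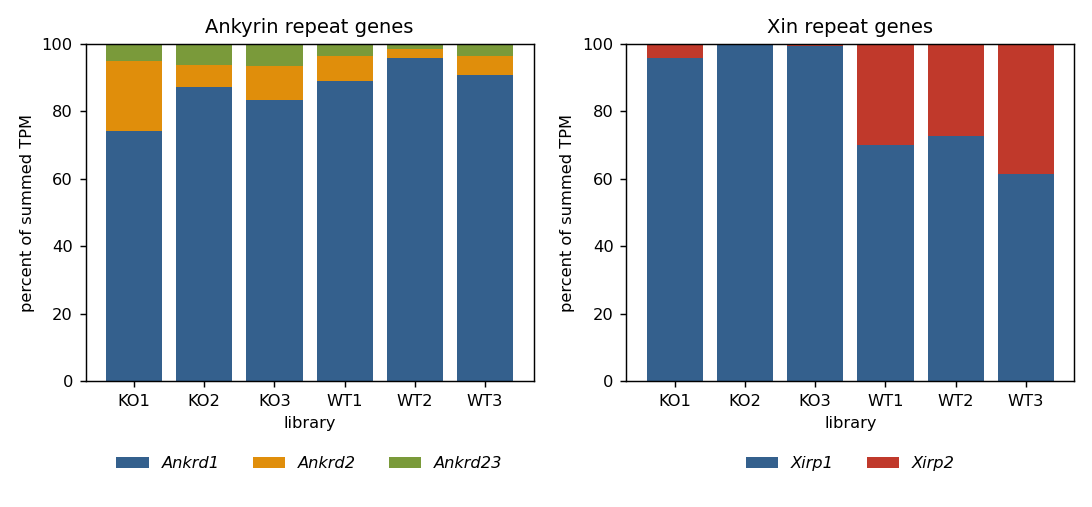
Percent of the summed TPM taken by each ankyrin repeat gene (left) and each Xin repeat gene (right) in each library, as stacked bars from 0 to 100. *Ankrd1* holds 74.1% to 87.3% in KO and 88.9% to 95.9% in WT, and *Xirp2* holds at most 4.28% in KO and at least 27.4% in WT.

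The relatives of the members outside the group were *Csrp1* and *Csrp2* (LIM proteins like *Csrp3*) and *Neb*, *Nebl* and *Lasp1* (nebulin repeat genes like *Nrap*). Of the 4 that were tested, *Lasp1* passed, which is 25% against 22.7% of all genes, and *Nebl* was too low to be tested. *Lasp1*, which encodes an actin-binding protein of focal adhesions, was at 59.3, 91.7 and 76.3 CPM in KO and 30.4, 30.4 and 30 in WT. It was 2.5-fold higher in KO (log2 fold change 1.32, SE 0.17, adjusted p = 0.00299, edgeR) and passed with each library left out. The log2 fold changes of *Csrp1* (−0.37), *Csrp2* (0.03) and *Neb* (−0.40) had adjusted p of 0.372, 0.93 and 0.376 (edgeR).

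Among 22 genes of proteins that bind the members or sit beside them at Z-discs and junctions, 5 fell and 1 rose, and the median log2 fold change was −0.36. That is 27.3% past the test, against 22.7% of all genes, and without KO1 it was 10 lower and 1 higher, against 30.6%. *Actn2*, the Z-disc α-actinin, was at 63.6, 51.8 and 30 CPM in KO and 364, 269 and 480 in WT (log2 fold change −2.94, SE 0.33, adjusted p = 0.00212, edgeR). *Tcap*, the telethonin gene, was at 2.85, 1.05 and 0.854 CPM in KO and 24.0, 6.58 and 19.1 in WT (−3.39, SE 0.61, adjusted p = 0.00927). For both genes all KO libraries were below all WT libraries, KO1 included, and both passed with each library left out. *Pdlim3*, an α-actinin-binding PDZ-LIM gene, fell by 1.89 on the log2 scale (adjusted p = 0.00519, edgeR). *Tjp1*, which encodes the junction protein ZO-1, rose by 1.09 (adjusted p = 0.00502). *Pdlim3* and *Tjp1* also passed with each library left out. The remaining 2 falls, named after their values were seen, were *Myoz1* (−1.52, adjusted p = 0.0308) and *Mypn* (−0.93, adjusted p = 0.0406). Neither passed without KO2, KO3, WT1 or WT3. *Mypn* was also lost with the replicate number as a block (adjusted p = 0.0574, edgeR). On TPM 5 fell and 1 rose among 21 tested (28.6%, against 20.5% of all genes), *Mypn* not among them and *Myoz1* below the filter.

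Of 14 genes of factors known to drive members of these families, 4 fell and 1 rose, with a median of −0.15. That is 35.7% of the list against 22.7% of all genes. *Mef2c*, a myogenic MADS-box factor, was at 17.1, 2.34 and 1.17 CPM in KO and 80.8, 162 and 189 in WT (log2 fold change −4.40, SE 0.95, adjusted p = 0.0169, edgeR). As for *Xirp2*, KO1 was the highest KO library and still below every WT library, and the call was lost without WT3 (adjusted p = 0.0556). Over 10 alternative fits the log2 fold change of *Mef2c* ran from −6.35 to −3.89. The YAP partner *Tead2* (−0.96, adjusted p = 0.0105), the TAZ gene *Wwtr1* (−0.72, adjusted p = 0.0169) and, named after its values were seen, *Yap1* (−0.54, adjusted p = 0.0199) were lower. Each of these was lost without WT1 (adjusted p up to 0.0961 with a library left out). *Wwtr1* was also lost without WT2 or WT3, and *Yap1* without KO3 or WT2 and with the replicate number as a block (adjusted p = 0.0506, edgeR). *Myod1* rose, from 98.5, 126 and 96.0 CPM in WT to 171, 270 and 194 in KO (0.99, adjusted p = 0.0141), and was lost without WT1 or WT3. On TPM 3 fell and 1 rose (28.6%, against 20.5%), without *Yap1*.

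Of 14 genes that respond to stretch or to YAP, 13 were tested, 1 fell and 3 rose, and the median was 0.10. That is 30.8% past the test, against 22.7% of all genes. *F3*, the tissue factor gene, was at 14.2, 37.5 and 26.4 CPM in KO and 5.70, 7.41 and 5.74 in WT (log2 fold change 2.05, adjusted p = 0.007, edgeR). *Egr1* (1.44, adjusted p = 0.0266) and *Crim1* (1.11, adjusted p = 0.0155) were higher, and *Amotl1*, an angiomotin gene, was lower (−0.86, adjusted p = 0.0259). *F3* passed with each library left out, *Crim1* was lost without WT1 or WT3, *Amotl1* without KO2, KO3, WT1 or WT2, and *Egr1* without every library but KO1. On TPM *F3*, *Crim1* and *Amotl1* passed with limma, 25% of 12 tested against 20.5% of all genes. *Ankrd1*, which belongs with these genes by its known regulation, differed by less than its spread (−0.11, SE 0.39).

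**Figure D5:**
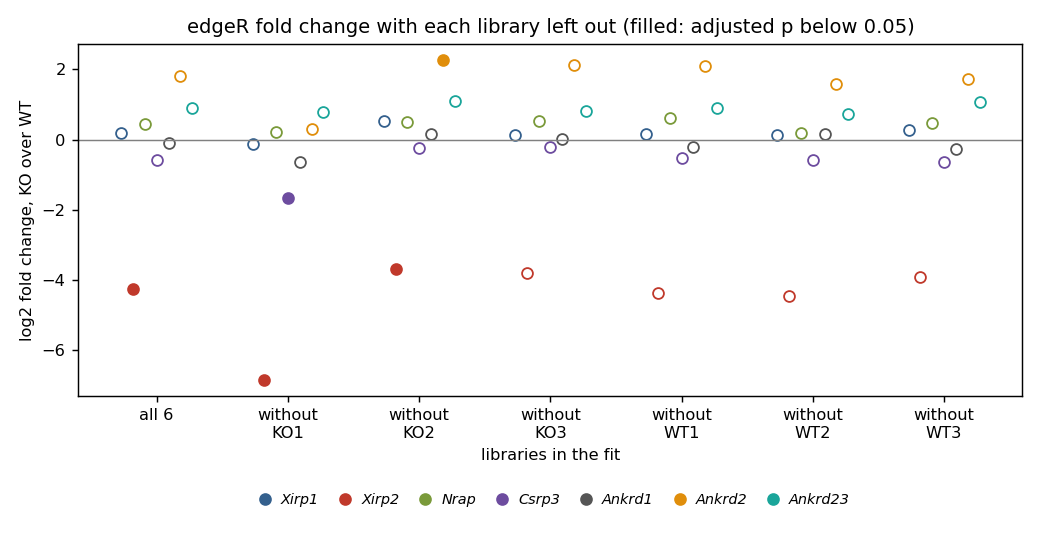
Log2 fold change of each member from edgeR with all 6 libraries and with each library left out; filled points passed an adjusted p of 0.05. *Xirp2* stays between −6.85 and −3.69, *Csrp3* is filled without KO1 at −1.66, and *Ankrd2* is filled without KO2 at 2.27.

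The myotube markers had the highest summed CPM of the marker lists in every library. That list held 16 genes and the others 6 or 7, so the sums of different lists are not on the same footing. Of the 16 myotube markers 1, *Myl1*, passed as lower (−2.39, adjusted p = 0.0297, edgeR), against 22.7% of all genes, and 13 passed as lower without KO1, against 30.6%. *Myl1* no longer passed when KO2, KO3, WT1 or WT3 was left out (adjusted p up to 0.102). Its log2 fold change lay between −3.47 and −1.99 over 10 alternative fits. On TPM 6 of the 16 passed as lower with limma (*Myh3*, *Myh7*, *Myh8*, *Actc1*, *Myl1* and *Tnni1*), which is 37.5% against 20.5% of all genes. Of 6 myoblast markers, *Myod1*, *Cdh15* and *Pax7* passed as higher and *Myf5* as lower, which is 66.7% against 22.7% of all genes. Their summed CPM, 3046 to 5306 in KO and 3924 to 4417 in WT, overlapped. The 6 proliferation markers summed to 197, 385 and 355 CPM in KO and 201, 212 and 269 in WT, and the lowest adjusted p among them was 0.086 for *Mki67* (edgeR). Of these markers, 1 was at an unadjusted p under 0.05 (edgeR), against 39% of all genes, and 1 passed with DESeq2, against 24.3%. Without KO1, 3 of the 6 (*Mki67*, *Top2a* and *Birc5*) passed as higher, against 30.6% of all genes. The 6 cardiac markers summed to 1038, 99.2 and 138 CPM in KO and 1196, 942 and 1361 in WT, mostly *Myl4*, which embryonic skeletal muscle also expresses, while *Myl7* and *Nppa* had at most 3 counts in every library. Of the 4 cardiac markers tested, 0 passed on counts with edgeR, against 22.7% of all genes. At an unadjusted p under 0.05 there was 1, against 39%, and with DESeq2 there was 1, against 24.3%. On TPM *Myh6* passed as lower with limma, 25% of the list against 20.5% of all genes, and on counts without KO1 *Myh6* and *Myl4* passed as lower, 2 of 4 against 30.6%. The sum of the 6 smooth muscle and fibroblast markers, given above, was mostly *Acta2*. Of these 6, *Pdgfra* alone passed, as higher (1.17, adjusted p = 0.0257, edgeR), which is 16.7% against 22.7% of all genes. The 7 adipocyte, endothelial and blood cell markers summed to 2.34 to 3.47 CPM in KO and 2.10 to 2.57 in WT, with *Adipoq*, *Fabp4*, *Plin1* and *Pecam1* at no more than 3 counts in any library.

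The profile of each member over the 6 libraries was compared with those of 10490 other tested genes (10491 for *Ankrd23*) by the root mean square difference of log2 CPM after centring, as a description. The genes nearest to *Xirp2* were *Robo2*, an axon guidance receptor gene, at 0.50 and *Tecrl* at 0.66, where the spread of *Xirp2* itself was 3.20. *Robo2* was at 30.9, 0.275 and 1.12 CPM in KO and 91.5, 90.5 and 130 in WT. It was picked for its nearness to *Xirp2*, so a like order of libraries follows from the choice. Neither *Robo2* (adjusted p = 0.106, edgeR) nor *Tecrl* (adjusted p = 0.0831) passed the test. The nearest to *Csrp3* were *Fgfrl1* and *Casp4* (both 0.15), and to *Ankrd2* *Hspb7*, a small heat shock protein gene of muscle, at 0.30 and *Porcn* at 0.36. *Hspb7* was at 58.3, 9.92 and 17.5 CPM in KO and 12.6, 6.19 and 12.4 in WT. It did not pass the test (adjusted p = 0.121, edgeR), and its high value in KO1 likewise follows from the choice. The remaining members had *H2-D1* and *Egln3* (*Ankrd1*), *Ckb* and *Wbscr27* (*Nrap*), *Sh2d6* and *Slc38a1* (*Xirp1*) and *Lmln* and *Thbs3* (*Ankrd23*) at 0.09 to 0.15. Of all these near genes, *Thbs3* alone passed the test (adjusted p = 0.028, edgeR). Among the members, *Nrap* and *Ankrd23* were nearest to each other at 0.35, and *Xirp2* was 2.54 to 3.51 from every other member.

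Genes beside the members on the chromosomes were also read. Within 5 Mb on each side, between 44 and 107 other genes were tested per member, and their median log2 fold change lay between −0.19 around *Xirp1* and 0.03 around *Nrap* and *Ankrd23*. Around *Xirp2* it was −0.10, and over all genes 0.03. *Xirp1* lies within the span of *Cx3cr1* but shares 0 of its 5839 exonic bases with it, and genes annotated on the opposite strand overlap *Xirp2* (*Gm13601*) and *Nrap* (*Gm17197* and *Habp2*). Use of strand in the counting is not given in the sources used here, so reads from those overlaps cannot be told apart.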

How the data were processed

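Libraries of rRNA-depleted total RNA were made from 3 KO and 3 WT samples. The authors aligned trimmed reads with STAR and deposited raw, unnormalized counts per gene. StringTie TPM values, which the authors deposited for each library, are normalized for transcript length and depth. The submitters' processing notes name Trim Galore, featureCounts, StringTie and Salmon without versions. The labels and the methods name different genome builds, and the deposited coordinates were those of GRCm38 (83.2% of 45137 genes had the start and end of GENCODE M21).

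Counts were scaled with TMM factors (0.949 to 1.08), filtered with filterByExpr and tested by genotype over all genes with edgeR 4.0.16 (quasi-likelihood, two-sided, Benjamini-Hochberg, threshold 0.05) in R 4.3.3. TPM values were tested as log2(TPM + 1) with limma 3.58.1 for genes at 1 TPM or more in at least 3 libraries. DESeq2 1.42.0 was an alternative. Exact permutation tests compared single values. Standard errors of edgeR fold changes were derived from the F statistic.

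On simulated counts edgeR recovered 38% of genes changed by 1 and 88% of genes changed by 2 on the log2 scale, with 8 false calls among 14947 genes tested. The changed genes were drawn above a floor on total counts that *Ankrd23* does not reach. No simulated library was made to stand apart as KO1 did, so these rates need not hold for the members. The members and gene lists were chosen with earlier results of these data known. Named genes were all members and their 5 relatives, the 3 largest rises and falls past the threshold in each further list, *Hnrnpa2b1*, and the 2 nearest profiles of each member among genes whose mean log2 CPM was 1 or more. Further genes were named for a call on TPM or in another fit, such as *Klhl41*, *Top2a* and *Birc5*. Others were named for the lowest adjusted p of a list (*Mki67*), for their level or position, or after their values were seen. Promoter sequences are from RefSeq, and protein sequences were not used here.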

Additional observations from a re-analysis of the deposited data

How the results depend on the processing

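Of the 7 members, 1 passed on counts with edgeR, and the number was 3 with no filter on low counts (*Xirp2*, *Csrp3* at −0.59 and *Ankrd2* at 1.78; 4538 of 30252 genes, 15%) and 0 to 2 with a library left out. It was 1 with DESeq2 (24.3% of all genes tested), with RLE factors (22.8%) and with the replicate number as a block (17%). With a library left out, 6.01% (without WT1) to 30.6% (without KO1) of all genes passed. Over all genes, 3361 passed on counts and 933 to 4712 with a library left out, and 2394 passed on TPM, 1075 with no filter on TPM and 484 to 3156 with a library left out. The count was lowest without WT1 and highest without KO1 by both measures. Of 53 tested genes in the 4 further lists, 16 passed (30.2%, against 22.7% of all genes). With a library left out, 7 (without WT1, against 6.01% of all genes) to 25 (without KO1, against 30.6%) passed. Of the 16, 6 passed in all 6 such fits, and the share of all genes that did so was not computed. On TPM 2 members passed, and 1 passed with no filter on TPM (3.94% of all genes). With both *Ankrd23* rows summed, a setting chosen after seeing the data, 1 passed (20.5% of all genes). With a library left out 0 to 3 members passed, against 4.21% (without WT1) to 27.6% (without KO1) of all genes. No pairing of libraries by replicate number was seen: same-numbered libraries had correlations of 0.137, −0.116 and 0.00413, and not every library correlated best with its own number. With 3 libraries per genotype, these correlations cannot decide whether same-numbered libraries share a batch. With the replicate block, 1 member, 2520 genes and 15 list genes passed on counts, with *Mypn* (adjusted p = 0.0574, edgeR) and *Yap1* (adjusted p = 0.0506) lost and *Klhl41* (adjusted p = 0.0219) gained, and 4 members and 2103 genes (18%) passed on TPM, with *Csrp3* (−0.93, adjusted p = 0.0475, limma) and *Ankrd2* (1.14, adjusted p = 0.0326) added.

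Signs turned for members that did not pass. *Xirp1* ran from −0.13 (without KO1) to 0.52 on counts and from −0.10 (without KO1; −0.07 without KO3) to 0.48 on TPM with a library left out. *Ankrd1* ran from −0.65 to 0.16 on counts (0.16 without KO2, 0.15 without WT2, 0.03 without KO3) and from −0.57 to 0.13 on TPM (0.06 without WT2). The *Ankrd1* share difference ran from −13.1 (without KO2) to −6.49 (without KO1) percentage points and that of *Xirp2* from −32.6 to −27. *Xirp2* could not be tested on TPM without a WT library, since it then missed the filter, and passed in the 7 other alternatives on TPM. The *Ankrd23* TPM call was lost with no filter (adjusted p = 0.169, limma). The cause of these shifts was not tested. Depth limits the KO values of *Xirp2*, with 6 counts in KO2. The counts of *Ankrd23* are low for its TPM (2.17 counts per TPM unit, against 61.8 for *Ankrd2*) and may be incomplete beside its overlapping second row, which was not tested. With 3 libraries per genotype, every member's precision is limited.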
